A study of Mus musculus with 9 samples.

Results

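The 97 genes here encode most of the nuclear share of the mitochondrial respiratory chain and ATP synthase, together with assembly factors of complex I. They are all genes of the deposited mouse table whose symbol begins with Nduf, Uqcr, Cox4 to Cox8 or Atp5, or is Sdha, Sdhb, Sdhc or Sdhd, 97 of 22183 genes in all. By complex they fall into 40 complex I subunit genes, 8 complex I assembly factors (Ndufaf genes), 4 genes of complex II, 8 of complex III, 19 of complex IV and 18 of ATP synthase. Polyadenylated RNA of whole mouse tibia was sequenced in 9 libraries. Ti+I-OG mice were given titanium particles together with I-OG, a hydrogel for injection that is made of natural polymers and carries irisin, a hormone released by muscle; their treatment lasted 5 weeks. The Ti group received titanium particles alone, a model of the bone loss that wear debris causes around an implant, and the naive group received nothing; each group had 3 libraries. The labels give no strain, age, sex or collection time for the Ti and naive mice, nor do they state that replicates are different animals, so p-values here measure only how far the 3 samples of a group lie apart, which may be technical variation. The naive mice had no treatment of any kind, so an effect of the particles cannot be told apart from one of their delivery, and no group received the hydrogel without irisin.

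The respiratory chain sits in the inner mitochondrial membrane. Complex I (NADH dehydrogenase) and complex II (succinate dehydrogenase) pass electrons to ubiquinone, complex III passes them on to cytochrome c, and complex IV (cytochrome c oxidase) hands them to oxygen; the proton gradient that complexes I, III and IV build drives ATP synthase. All of complex II and most subunits of the other complexes are made from nuclear genes, while a small core is encoded in mitochondrial DNA. In bone, osteoclasts are known for their many mitochondria, and skeletal muscle, which clings to a dissected tibia, is richer still and carries its own isoforms of several complex IV subunits.

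Depth was similar in all libraries, with total counts of 16256081 to 24766502. Markers of osteoblasts and osteocytes, the defining cells of bone, were present in every library, their 10 genes summing to 4085 to 6169 CPM in Ti+I-OG, 6383 to 9039 CPM in Ti and 1444 to 3528 CPM in naive (CPM, counts scaled to library size after TMM normalisation). The 97 genes took up 0.897% to 1.01% of all counts in Ti+I-OG, 0.859% to 0.932% in Ti and 0.760% to 0.844% in naive. Globin transcripts took 15.1% to 15.9% of the counts in Ti+I-OG, against 6.68% to 9.98% in Ti and 2.95% to 9.47% in naive. Of the 97 genes, 92 passed the filter on low counts. The 5 left out were Ndufb11b, with 2 counts in 1 naive library; the pseudogene Cox5b-ps, with an estimated 1.02 counts in 1 naive library; and Cox7b2, Cox8c and a second row under the symbol Atp5o, which had no count in any library. In whole tissue, fewer cells of a type cannot be told apart from less RNA per cell, and this holds for every level below.

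Per unit of transcript length, ATP synthase genes were the most abundant of the 6 classes and assembly factors the least. Summed FPKM (fragments per kilobase of transcript and per sequencing depth, as deposited, mean ± SD, n = 3) was 3408 ± 242 in Ti+I-OG, 3339 ± 230.2 in Ti and 2906 ± 179 in naive for ATP synthase. For complex I subunits it was 3051 ± 333 in Ti+I-OG, 2908 ± 269.8 in Ti and 2411 ± 277 in naive. For complex IV it was 2602 ± 272 in Ti+I-OG, 2450.2 ± 89.4 in Ti and 2049.6 ± 225 in naive, and for complex III 1067 ± 108 in Ti+I-OG, 1021 ± 81.2 in Ti and 854 ± 74.8 in naive. In these 4 classes the group means followed the order Ti+I-OG, Ti, naive, and the ranges of Ti+I-OG and Ti overlapped in each. All 3 Ti+I-OG libraries and all 3 Ti libraries lay above all 3 naive libraries in these classes. Complex II summed to 363 ± 13.0 in Ti+I-OG, 332 ± 30.4 in Ti and 324 ± 9.54 in naive, and there the Ti libraries, from 300.9 to 361.6, lay on both sides of the naive ones, from 318.6 to 335.5. The 8 assembly factors summed to 77.0 ± 6.56 in Ti+I-OG, 73.3 ± 4.37 in Ti and 72.8 ± 5.03 in naive, and all 3 groups overlapped.

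**Figure D1:**
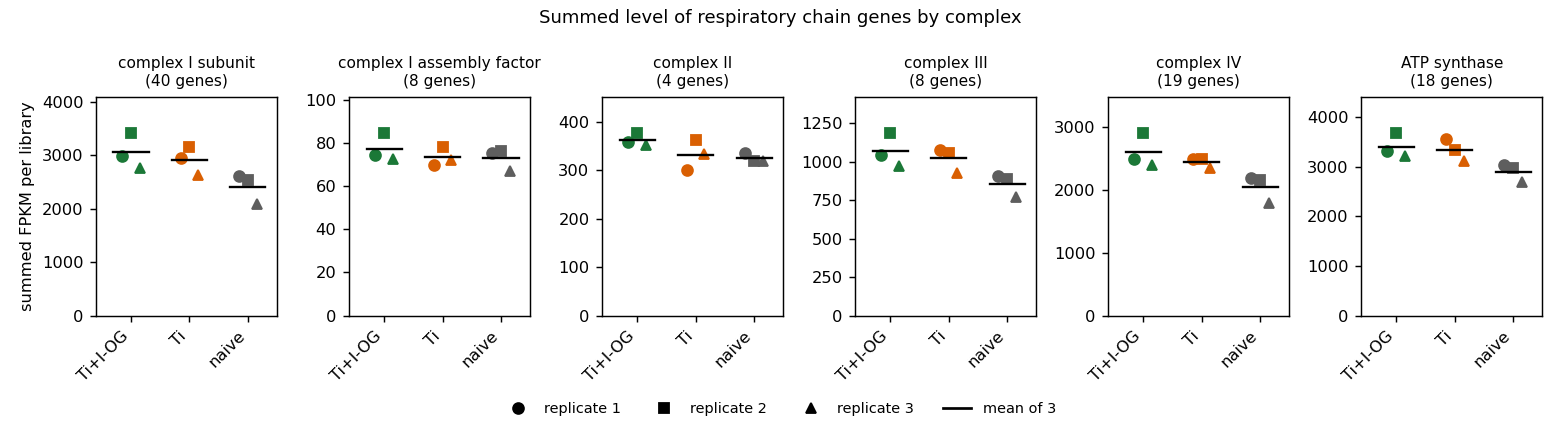
Summed FPKM of each class of respiratory chain genes in each library (points, shaped by replicate number) with the mean of 3 libraries (bar); groups run Ti+I-OG, Ti, naive along each panel and every axis starts at 0. In complexes I, III, IV and ATP synthase all Ti+I-OG and Ti libraries sit above all naive libraries, and naive replicate 3 is the lowest library in each of these panels.

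Within a complex, single genes spanned a wide range of levels among those that passed the filter. In ATP synthase the highest mean FPKM over 9 libraries was that of Atp5b, the catalytic beta subunit, at 483, and the lowest that of Atp5k, the small membrane subunit e, at 52.9. In complex I, Ndufa4 led with 253 and its relative Ndufa4l2 came last with 6.22; the protein of Ndufa4 is now placed in complex IV, though its symbol puts it here with complex I. Among assembly factors the range ran from 4.34 for Ndufaf6 to 20.7 for Ndufaf8. In complex III the hinge protein gene Uqcrh had 203 and Uqcr11 76.8. Complex IV had the largest ratio between its highest and lowest gene, from 2.95 for Cox4i2 to 362 for Cox4i1, which encode alternative forms of one subunit. The genes of complex II lay close together. Sdhb, the iron-sulphur subunit, averaged 106 FPKM. The membrane anchor Sdhd averaged 105 FPKM, the flavoprotein subunit Sdha 69.6 and the other anchor, Sdhc, 59.2.

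The members are short transcripts. Transcript length, taken from the ratio of deposited counts to deposited FPKM, had a median of 731 bases over the 92 tested members, against 2717 bases over all 14211 tested genes. Of the members, 63 (68.5%) were under 1 kb, against 8.16% of all tested genes. The shortest tested member was Cox8b with 360 bases and the longest Ndufaf4 with 3498. The estimated length varied by at most 1% between libraries in 48 of 86 members with enough counts to compare, and by up to a ratio of 1.51 in Ndufc1. In Ti+I-OG vs naive, the log2 ratio of mean FPKM and that of counts per total count differed by at most 0.05 in 85 of the 92 members. By construction these 2 ratios can differ only where the estimated length differs between libraries. Counts scaled by TMM gave larger differences than FPKM. In that comparison the members' median log2 ratio was 0.50 by TMM, with 91 positive, and 0.31 by FPKM, with 82 positive. The median of all tested genes was 0.03 by TMM and -0.17 by FPKM. Short transcripts as a class differed between libraries. Relative to each gene's mean over 9 libraries on the log2 CPM scale, the median of genes under 1 kb that are not members was 0.23, 0.35 and 0.01 in Ti+I-OG, 0.02, 0.02 and 0.00 in Ti and -0.08, -0.11 and -0.41 in naive. The median of the members was 0.19, 0.44 and 0.06 in Ti+I-OG, 0.05, 0.11 and -0.06 in Ti and -0.16, -0.15 and -0.46 in naive. Ti+I-OG replicate 2 was the highest library and naive replicate 3 the lowest by both measures.

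**Figure D2:**
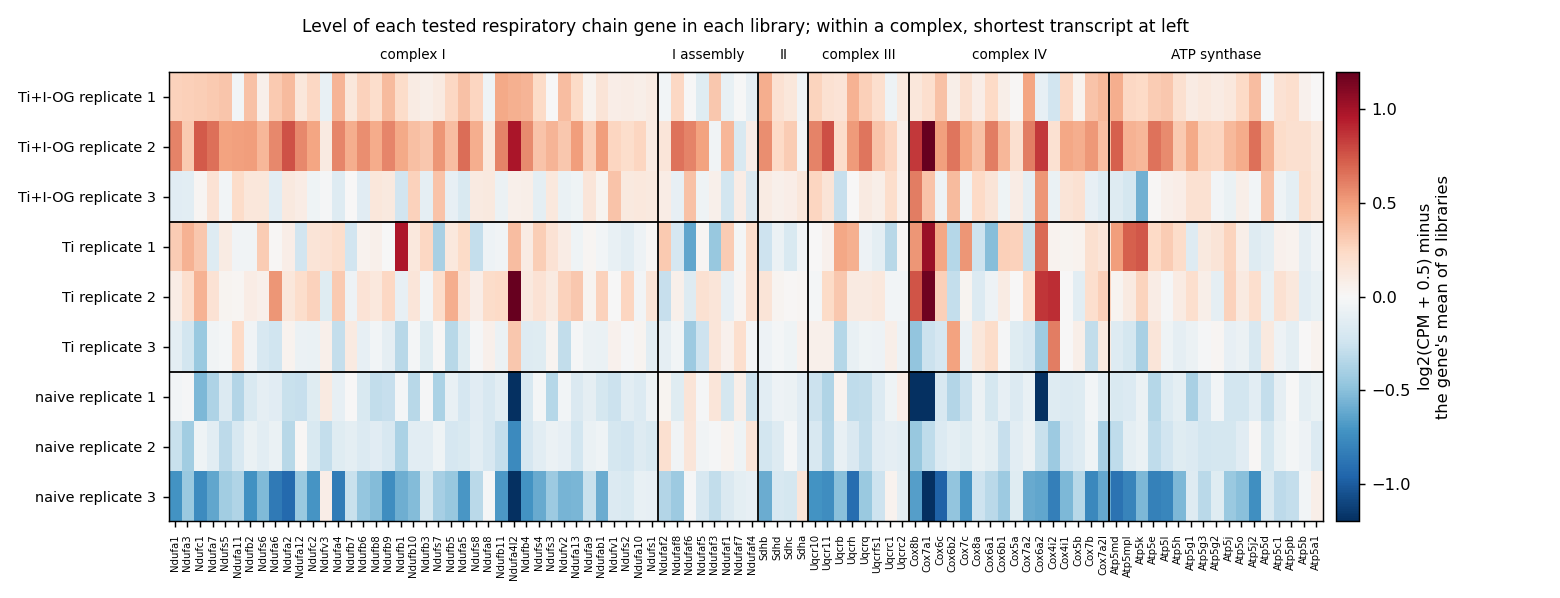
Level of the 92 tested respiratory chain genes (columns, grouped by complex and ordered by transcript length within it) in the 9 libraries (rows, Ti+I-OG above Ti above naive), as log2(CPM + 0.5) minus the gene's mean over 9 libraries. Ti+I-OG replicate 2 is the reddest row and naive replicate 3 the bluest, and the strongest colours are in Cox7a1, Cox6a2 and Ndufa4l2.

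Between tibiae given particles and I-OG and naive tibiae, 23 of the 92 tested genes passed the test (25%), all of them higher in Ti+I-OG, against 8.26% of all tested genes in either direction and 3.84% called higher (edgeR quasi-likelihood test, Benjamini-Hochberg adjusted p under 0.05). They were 11 of 39 complex I subunit genes, 1 of 4 genes of complex II, 4 of 8 of complex III, 3 of 16 of complex IV, 4 of 17 of ATP synthase and 0 of 8 assembly factors. The classes follow the symbols, so Ndufa4l2, the relative of Ndufa4, is counted with complex I. The fold change was positive in 91 of 92 members, against 52.7% of all genes, with a median of 0.50 on the log2 scale, against a median of 0.03 over all genes. In 59 of 92 members (64.1%) all Ti+I-OG libraries lay above all naive libraries, against 18.7% of all genes. Among the 1096 other genes under 1 kb this held for 433, and among the 63 members under 1 kb for 45. The median log2 fold change of those other genes was 0.43. With the replicate number as a block, 62 of 92 members passed, all higher, among them all 23; 3450 of all genes passed in that fit. The count of 23 rested on single libraries: it was 0 without naive replicate 3, 0 without Ti+I-OG replicate 1, 0 without Ti+I-OG replicate 2, 3 without naive replicate 1, 13 without Ti+I-OG replicate 3 and 27 without naive replicate 2, so each of the 23 lost its call in at least 3 of 6 fits, and the count over all genes ran from 59 to 2119. With a correction that removes a smooth dependence on transcript length from each library, the members' median was 0.08 and 1 member passed, Ndufa4l2, against 356 of all genes. Under 500 bases this curve did not follow the other genes. The 225 of them had an uncorrected median of -0.08, yet Uqcr11 moved from 0.89 to 0.30 and Atp5e from 0.82 to 0.23. For members that short, the correction is thus not a comparison with other genes of their own length.

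Complex III held the largest share of called genes. Uqcr11, a small subunit of that complex, had 37.8, 57.1 and 37.2 CPM in Ti+I-OG, 34.5, 39.2 and 34.7 CPM in Ti and 25.8, 25.9 and 19.6 CPM in naive. Every Ti+I-OG and every Ti library lay above every naive library. The log2 fold change was 0.89 (SE 0.19, adjusted p = 0.025) in Ti+I-OG vs naive. Uqcr10, the subunit next to the Rieske protein, had 51.3, 64.5 and 51.2 CPM in Ti+I-OG, 42.9, 42.0 and 44.6 CPM in Ti and 35.6, 37.3 and 25.8 CPM in naive, again with no overlap of either group with naive. Its fold change was 0.76 (SE 0.16, adjusted p = 0.025). Uqcrq, which binds ubiquinone in the complex, had 109, 139 and 95.6 CPM in Ti+I-OG, 85.2, 95.9 and 85.6 CPM in Ti and 72.1, 72.7 and 65.3 CPM in naive, and its fold change was 0.71 (SE 0.15, adjusted p = 0.0247). Uqcrh followed with 0.76 (SE 0.21, adjusted p = 0.0475). The 2 core subunits Uqcrc1 and Uqcrc2 and the Rieske iron-sulphur protein gene Uqcrfs1 are longer, of 1637, 1896 and 1363 bases, and did not pass. Uqcrc2 had 177, 171 and 169 CPM in Ti+I-OG, 165, 159 and 156 CPM in Ti and 172, 149 and 150.1 CPM in naive, with all 3 groups close together. Uqcrfs1 had 144, 159 and 131 CPM in Ti+I-OG, all above its naive libraries, with 112, 114 and 105 CPM. Uqcrb, of 535 bases, is short and did not pass either. Its Ti+I-OG libraries, with 94.5, 98.2 and 69.3 CPM, overlapped its naive ones, with 86.9, 79.2 and 59.4 CPM.

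In complex I the called genes were mostly small accessory subunits. Ndufa2 had 50.9, 66.9 and 42.5 CPM in Ti+I-OG, 41.4, 43.0 and 40.2 CPM in Ti and 32.3, 31.0 and 20.3 CPM in naive, and its log2 fold change in Ti+I-OG vs naive was 0.94 (SE 0.20, adjusted p = 0.0266). Ti+I-OG and Ti libraries all exceeded the naive ones. Ndufa7, Ndufb2, Ndufb4, Ndufb8, Ndufb9, Ndufb10, Ndufb11 and Ndufs5, all accessory subunits, had fold changes from 0.57 (Ndufb10, adjusted p = 0.033) to 0.77 (Ndufa7, adjusted p = 0.0288). Ndufv1, the core subunit that binds NADH, had 79.8, 90.5 and 96.1 CPM in Ti+I-OG, 71.1, 75.2 and 78.3 CPM in Ti and 63.0, 65.3 and 67.6 CPM in naive, and its fold change was 0.44 (SE 0.12, adjusted p = 0.042). Ndufs1, the largest core subunit and one of the longest member transcripts at 2580 bases, had 108, 108 and 109 CPM in Ti+I-OG, 101, 112 and 91.9 CPM in Ti and 96.2, 88.1 and 93.7 CPM in naive, and it did not pass. None of the 8 assembly factors passed; the one with the smallest p was Ndufaf8, with 0.51 (SE 0.20, adjusted p = 0.119). With the replicate block, 32 of 39 subunit genes and, among assembly factors, Ndufaf8 alone passed.

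Sdhb was the single gene of complex II to pass. It had 161, 176 and 128 CPM in Ti+I-OG, 101, 133 and 115 CPM in Ti and 109, 102 and 79.0 CPM in naive; 2 of the Ti libraries lay above every naive library and the third between them. Its fold change in Ti+I-OG vs naive was 0.68 (SE 0.17, adjusted p = 0.0376), and its transcript, at 1142 bases, is longer than those of 21 of the other 22 called genes. Sdha had 195, 198 and 220.5 CPM in Ti+I-OG, 196, 204 and 208 CPM in Ti and 182, 183 and 223 CPM in naive, with the 3 groups overlapping. The anchors Sdhc and Sdhd did not pass; their Ti+I-OG libraries, from 88.9 to 104 CPM and from 134 to 152 CPM, lay above their naive libraries, from 72.8 to 82.5 CPM and from 112 to 124 CPM.

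In ATP synthase, Atp5e (the epsilon subunit of the central stalk), Atp5g3 (a source of the c-ring), Atp5o (the subunit that confers oligomycin sensitivity) and Atp5l (subunit g) passed. Atp5e had 80.2, 102 and 65.5 CPM in Ti+I-OG, 76.4, 68.8 and 71.6 CPM in Ti and 50.9, 52.2 and 36.7 CPM in naive. No Ti+I-OG or Ti library overlapped naive. Its fold change in Ti+I-OG vs naive was 0.82 (SE 0.18, adjusted p = 0.0273). For Atp5l it was 0.70 (SE 0.19, adjusted p = 0.0474), for Atp5o 0.54 (SE 0.14, adjusted p = 0.045) and for Atp5g3 0.45 (SE 0.11, adjusted p = 0.0381). The catalytic subunit genes are long and abundant and did not pass: Atp5b had 956, 1055 and 1068 CPM in Ti+I-OG, 855, 845 and 924 CPM in Ti and 849, 883 and 901 CPM in naive, the highest counts of any member. All 3 c-ring genes encode the same mature protein, and their mix stayed within the spread between libraries, with Atp5g3 giving 45.9% ± 1.91 of their summed FPKM in Ti+I-OG, 46.1% ± 1.23 in Ti and 44.7% ± 1.86 in naive (SD, n = 3).

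In complex IV the main form of subunit 4, Cox4i1, passed. It had 318, 369 and 298 CPM in Ti+I-OG, 274, 269 and 268 CPM in Ti and 239, 232 and 184 CPM in naive, with no overlap of Ti+I-OG or Ti with naive. Its fold change in Ti+I-OG vs naive was 0.59 (SE 0.14, adjusted p = 0.0349). The other called genes of this complex were Cox7a1 and Cox8b, isoforms made in muscle and brown fat, which are described below. Over all 3 groups at once (F test), 6 members passed, against 5.77% of all genes: Ndufa4l2, Uqcrq, Uqcr11, Uqcr10, Atp5e and Ndufa2, with adjusted p from 0.0221 to 0.0432.

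Between Ti and naive tibiae, 2 of 92 members passed (2.17%), Ndufa4l2 and Cox7a1, both higher in Ti, against 6.43% of all genes (4.05% called higher). The count depended on the model: with the replicate block, 39 of 92 members passed, all higher in Ti, and 2968 of all genes passed. Ndufa4l2, a relative of Ndufa4 whose gene is known to be induced under low oxygen, had 6.74, 10.1 and 5.10 CPM in Ti+I-OG, 6.47, 12.9 and 6.22 CPM in Ti and 1.56, 2.66 and 1.68 CPM in naive. Every Ti+I-OG and every Ti library lay above every naive library. The log2 fold change in Ti vs naive was 2.12 (SE 0.37, adjusted p = 0.0122), and it kept its call without each of the 6 libraries in turn (adjusted p from 0.00841 to 0.0491) and with the length correction (adjusted p = 0.0142). In Ti+I-OG vs naive it was 1.90 (SE 0.37, adjusted p = 0.02), and there it kept its call with the length correction (adjusted p = 0.0434) and lost it without naive replicate 1, naive replicate 3, Ti+I-OG replicate 1 or Ti+I-OG replicate 2 (adjusted p up to 0.101). An exon of Ndufa4l2 overlaps Shmt2 on the opposite strand, and the library kit does not keep the strand; the log2 fold change of Shmt2 was -0.68 in Ti vs naive and -0.33 in Ti+I-OG vs naive, and it did not pass.

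Fold changes in Ti vs naive were positive in 89 of 92 members, against 50.7% of all genes, with a median of 0.31, against 0.01 over all genes and 0.23 over the 1096 other genes under 1 kb. All Ti libraries lay above all naive libraries in 39 members (42.4%), against 14.3% of all genes. Among the 1096 other genes under 1 kb this held for 217, and among the 63 members under 1 kb for 31. The smallest p in ATP synthase was that of Atp5e (0.63, SE 0.18, adjusted p = 0.0563), in complex III that of Uqcr11 (0.60, SE 0.18, adjusted p = 0.0716) and in complex II that of Sdhb (0.26, SE 0.17, adjusted p = 0.339); none passed. Among assembly factors the smallest p was that of Ndufaf6, which had 2.78, 4.04 and 3.23 CPM in Ti and 5.12, 5.09 and 4.52 CPM in naive with a change of -0.55 (SE 0.24, adjusted p = 0.166). With the length correction the members' median was 0.08, and Ndufa4l2 alone passed, against 815 of all genes. DESeq2 called 8 of 92 members, all higher, and 1859 of all 14211 tested genes. The 8 were the same 2 and Atp5e, Cox4i2, Cox6a2, Cox7a2l, Cox8b and Uqcr11.

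Between Ti+I-OG and Ti tibiae, no member passed (edgeR; 0.0422% of all genes, 6 genes, did). At an unadjusted p under 0.05 there were 8 of 92 members, against 7.84% of all genes, and DESeq2, limma on log2 FPKM and edgeR with the replicate block each called 0 members. All Ti+I-OG libraries lay above all Ti libraries in 15 of 92 members, against 7.75% of all genes. Among the 1096 other genes under 1 kb this held for 181, and among the 63 members under 1 kb for 7. Those other genes had a median log2 fold change of 0.17, with 779 of 1096 positive. The fold change was positive in 79 of 92 members, against 49.6% of all genes, with a median of 0.17, and by the ratio of mean FPKM, which is not scaled for the share taken by globin, in 57 of 92 with a median of 0.04. The smallest p was that of Ndufaf6, an assembly factor of complex I, which had 4.56, 7.14 and 5.95 CPM in Ti+I-OG and 2.78, 4.04 and 3.23 CPM in Ti. All its Ti+I-OG libraries lay above its Ti libraries, and its fold change was 0.80 (SE 0.24, adjusted p = 0.628). In the other classes the smallest p belonged to Uqcrq (0.36, SE 0.15, adjusted p = 0.628), Sdhb (0.42, SE 0.17, adjusted p = 0.63), Ndufs8 (0.34, SE 0.14, adjusted p = 0.63), Cox6a1 (0.44, SE 0.19, adjusted p = 0.63) and Atp5d (0.29, SE 0.14, adjusted p = 0.631). With the length correction the members' median was -0.01, with 44 positive and 48 negative.

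**Figure D3:**
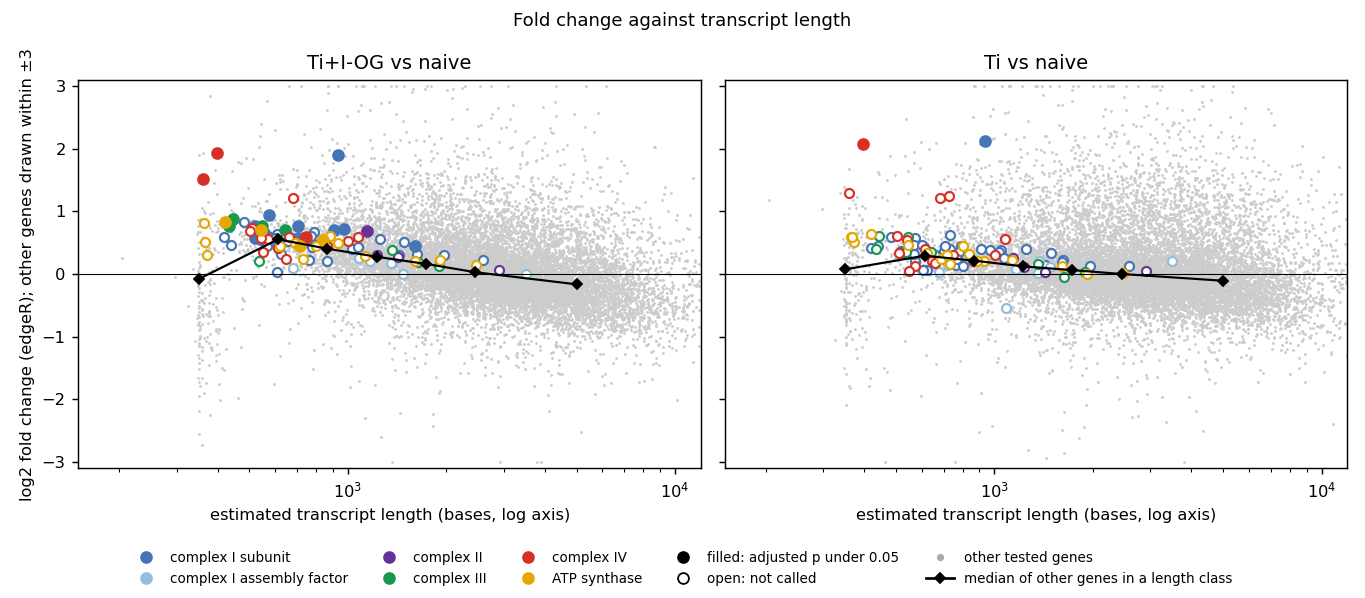
Log2 fold change of the 92 tested respiratory chain genes (circles coloured by complex, filled where adjusted p is under 0.05) and of all other tested genes (grey, drawn within ±3) against transcript length on a log axis, in Ti+I-OG vs naive (left) and Ti vs naive (right); diamonds are medians of the other genes in 7 length classes. The median of other genes falls with length from 500 bases up in both panels, and most called members in the left panel are under 1 kb.

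The size of the fold change followed transcript length both within the members and outside them. Both comparisons with naive share the naive libraries. In Ti+I-OG vs naive the members' median was 0.57 under 1 kb (63 genes, 21 called), 0.30 from 1 to 2 kb (25 genes, 2 called: Sdhb and Ndufv1) and 0.10 at 2 kb and over (4 genes, 0 called). Of all genes, 13.9% were called higher under 1 kb, 5.81% from 1 to 2 kb and 1.91% at 2 kb and over. In finer classes, the 38 members of 500 to 750 bases had a median of 0.57 and the 303 other genes of that length 0.55, and from 750 to 1000 bases the 14 members had 0.52 and 568 other genes 0.40. Under 500 bases the 11 members had a median of 0.81 and the 225 other genes -0.08. Over genes, which share libraries and are not independent, Spearman's correlation of fold change with length was -0.58 in the 92 members and -0.40 in the other 14119 genes. In Ti vs naive the correlations were -0.60 and -0.24, and in Ti+I-OG vs Ti -0.09 and -0.32.

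Ribosomal protein genes, another set of short transcripts, gave similar medians. The 92 tested genes with a ribosomal protein symbol (a set that includes a few related names such as Rps6ka1) had median log2 fold changes of 0.51 in Ti+I-OG vs naive, 0.24 in Ti vs naive and 0.25 in Ti+I-OG vs Ti. Of these, edgeR called 11 higher and 2 lower in Ti+I-OG vs naive (67 higher and 3 lower with the replicate block). It called 0 in Ti vs naive (13 higher and 1 lower with the block), where 11 had an unadjusted p under 0.05. In Ti+I-OG vs Ti it called 0, and 15 had an unadjusted p under 0.05. With the length correction the ribosomal medians were 0.04, 0.01 and 0.07 in the same order of comparisons, and the members' 0.08, 0.08 and -0.01.

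**Figure D4:**
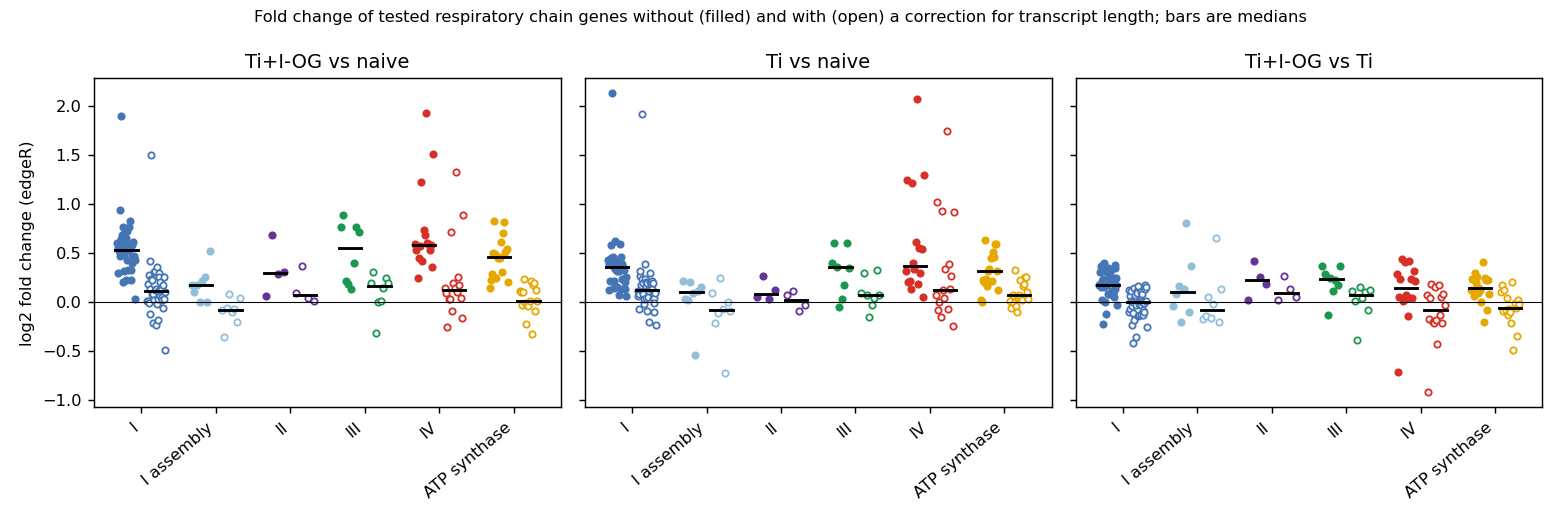
Log2 fold changes of the tested respiratory chain genes by complex in each comparison, without (filled circles, left of each pair) and with (open circles, right) a correction for transcript length; bars are medians over the genes of a complex. With the correction the medians of all classes lie between -0.09 and 0.16. Ndufa4l2 (drawn with complex I by its symbol) and Cox7a1 (complex IV) stay the highest genes in Ti+I-OG vs naive and Ti vs naive.

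Several subunits of complex IV exist in a form typical of striated muscle beside a form made in most cells. Cox6a2 is the muscle form of subunit 6A, Cox7a1 that of subunit 7A and Cox8b that of subunit 8; in mouse, Cox7a1 and Cox8b are also made in brown fat. Cox6a1, Cox7a2 and Cox8a are their widely expressed partners. Cox7a1 had 6.25, 12.9 and 6.91 CPM in Ti+I-OG, 11.5, 12.7 and 4.41 CPM in Ti and 1.10, 4.25 and 1.55 CPM in naive. Naive replicate 2 came close to Ti replicate 3, the lowest Ti library, but no Ti+I-OG or Ti library overlapped naive. Its log2 fold change was 1.93 (SE 0.52, adjusted p = 0.0459) in Ti+I-OG vs naive and 2.07 (SE 0.52, adjusted p = 0.0388) in Ti vs naive. The call in Ti+I-OG vs naive was kept in 1 of 6 fits without a library, that without naive replicate 2 (adjusted p from 0.0128 to 0.184), and the call in Ti vs naive was lost without naive replicate 1, naive replicate 3, Ti replicate 1 or Ti replicate 2 (adjusted p from 0.0147 to 0.154), and with the length correction both were lost (adjusted p = 0.136 and 0.059).

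Cox8b had 4.51, 7.76 and 6.51 CPM in Ti+I-OG, 6.09, 7.21 and 2.79 CPM in Ti and 1.37, 2.85 and 2.39 CPM in naive; Ti replicate 3 lay among the naive libraries. Its fold change was 1.51 (SE 0.38, adjusted p = 0.0395) in Ti+I-OG vs naive and 1.29 (SE 0.38, adjusted p = 0.0648) in Ti vs naive. Cox6a2 had 20.6, 40.2 and 32.1 CPM in Ti+I-OG, 35.5, 40.2 and 16.2 CPM in Ti and 7.48, 18.2 and 14.2 CPM in naive, and again Ti replicate 3 overlapped naive. Its fold changes were 1.22 (SE 0.38, adjusted p = 0.0633) and 1.21 (SE 0.38, adjusted p = 0.0739), neither of which passed; each passed with the replicate block. Cox6a2 made up 7.72, 11.2 and 12.1% in Ti+I-OG, 19.5, 16.8 and 6.25% in Ti and 3.99, 8.64 and 7.83% in naive of the FPKM of Cox6a2 and Cox6a1 together. Cox7a1 made up 6.19, 11.0 and 9.92% in Ti+I-OG, 16.8, 13.5 and 6.90% in Ti and 1.67, 6.15 and 3.37% in naive of its pair, and Cox8b 3.82, 5.34 and 4.89% in Ti+I-OG, 6.29, 7.00 and 2.30% in Ti and 1.32, 2.72 and 2.57% in naive. In each pair Ti replicate 1 and Ti replicate 2 had the highest shares of all 9 libraries and naive replicate 1 the lowest.

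Skeletal muscle transcripts also differed between the groups. The 16 muscle markers, which include Acta1, Ckm and Mylpf, summed to 3986, 7051 and 5950.1 CPM in Ti+I-OG, 5514, 9211 and 2654 CPM in Ti and 1145, 3354 and 2959 CPM in naive, and none was at 0. In that list 5 of 16 genes were called higher in Ti+I-OG vs naive (12 with the replicate block). In Ti vs naive 2 of 16 were called higher (10 with the block). In Ti+I-OG vs Ti 3 of 16 were called higher, Myh7, Tnni1 and Tnnt1. The list was divided there, with 9 positive and 7 negative fold changes and a median of 0.04. Ti replicate 3, where the muscle markers and the adipocyte list were both lowest outside naive, was also the Ti or Ti+I-OG library with the least Cox6a2, Cox7a1 and Cox8b. Naive replicates 2 and 3 had more of the muscle markers than Ti replicate 3 but less Cox7a1, 4.25 and 1.55 against 4.41 CPM. For Cox6a2 and Cox8b, naive replicate 2 had more than Ti replicate 3 and naive replicate 3 less. The part of muscle, or of brown fat, in the isoform levels was not tested. Markers of other cells also differed: in Ti+I-OG vs naive, 6 of 8 osteoclast markers, 3 of 10 osteoblast and osteocyte markers (5 with the replicate block) and 5 of 11 erythroid markers were called higher, the osteoclast list summing to 2099.6 to 2843 CPM in Ti+I-OG, 2683 to 3138 CPM in Ti and 1273 to 2032 CPM in naive and the erythroid list to 169680.2 to 183993 CPM in Ti+I-OG, 70354 to 103416 CPM in Ti and 30246 to 97065 CPM in naive. In Ti vs naive, 6 of 8 osteoclast and 8 of 10 osteoblast and osteocyte markers were called higher (6 and 10 with the block). The block also called 3 adipocyte and 2 B lineage markers higher, 3 neutrophil markers lower and 0 erythroid markers in Ti vs naive. Of 8 adipocyte markers 3 were called higher and 1 lower in Ti+I-OG vs naive and 0 in Ti vs naive; the adipocyte list, which includes the brown fat genes Cidea and Ucp1 (Ucp1 did not pass the filter), summed to 356, 509 and 694 CPM in Ti+I-OG, 537, 681 and 302 CPM in Ti and 242, 309 and 165 CPM in naive. Of 8 neutrophil markers 1 was called lower in Ti vs naive and 0 in Ti+I-OG vs naive (3 lower with the replicate block), and of 8 B lineage markers 0 in each (3 higher with the block in Ti+I-OG vs naive). After the length correction, 0 erythroid and 0 adipocyte markers were called in Ti+I-OG vs naive, against 3 of 16 muscle, 5 of 8 osteoclast and 3 of 10 osteoblast and osteocyte markers. Their part in the respiratory chain genes' levels was not tested.

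**Figure D5:**
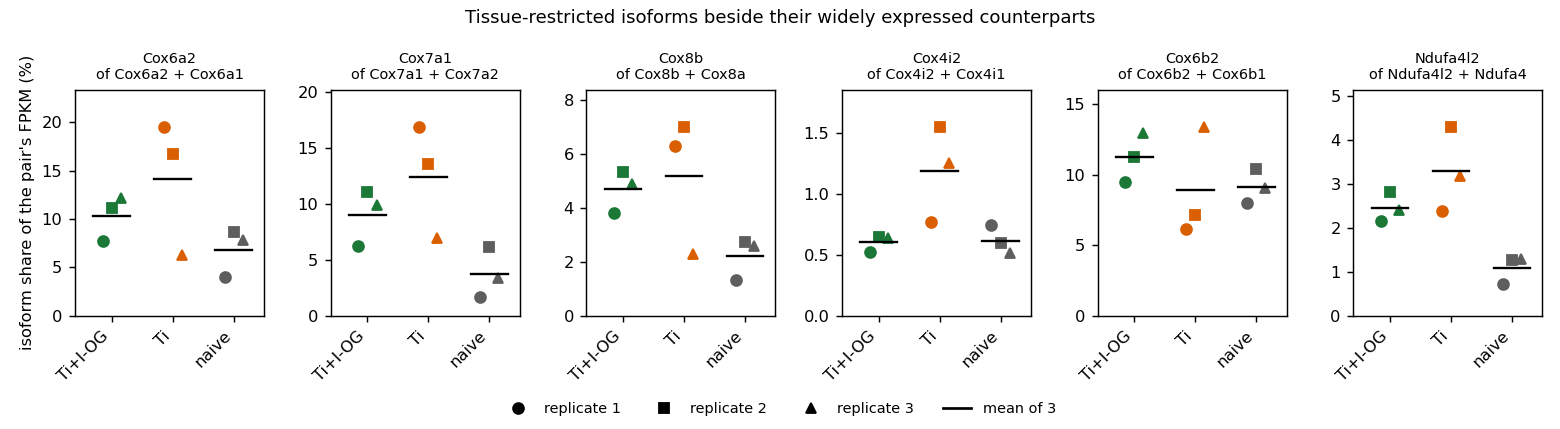
Share of each tissue-restricted isoform in the summed FPKM of the isoform and its widely expressed counterpart, per library (points, shaped by replicate number) with the mean of 3 (bar); axes start at 0. Ti replicates 1 and 2 hold the highest shares of the muscle isoforms Cox6a2, Cox7a1 and Cox8b, and all Ti+I-OG and Ti libraries exceed all naive libraries for Ndufa4l2.

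Other alternative forms were minor and variable. Cox4i2, a form of subunit 4 known from lung and from cells that sense oxygen, had 1.64, 2.33 and 1.87 CPM in Ti+I-OG, 2.08, 4.12 and 3.33 CPM in Ti and 1.75, 1.35 and 0.922 CPM in naive. Its Ti libraries lay above its naive ones and 2 of them above every Ti+I-OG library. Its log2 fold change was 1.24 (SE 0.36, adjusted p = 0.0604) in Ti vs naive and 0.53 (SE 0.37, adjusted p = 0.353) in Ti+I-OG vs naive, and neither passed; it made up 0.524, 0.645 and 0.639% in Ti+I-OG, 0.771, 1.55 and 1.26% in Ti and 0.745, 0.594 and 0.512% in naive of the FPKM of Cox4i2 and Cox4i1. Cox6b2, a form of subunit 6B best known from testis, made up 9.51, 11.2 and 12.9% in Ti+I-OG, 6.14, 7.15 and 13.4% in Ti and 8.01, 10.4 and 9.06% in naive of its pair with Cox6b1, with all 3 groups overlapping. Ndufa4l2 made up 2.16, 2.83 and 2.40% in Ti+I-OG, 2.37, 4.29 and 3.19% in Ti and 0.719, 1.26 and 1.28% in naive of its pair with Ndufa4. The testis-restricted Cox7b2 and Cox8c had no count in any library, which allows a level of up to 0.114 to 0.206 CPM per library (3 counts).

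The core subunits that mitochondrial DNA encodes had their highest level in the Ti group. All 13 had a positive fold change in Ti vs naive, with a median of 0.93, and 2 of them, mt-Nd2 and mt-Nd6, passed. With the replicate block 12 of 13 passed in Ti vs naive, all higher. In Ti+I-OG vs Ti all 13 were negative, with a median of -0.50 and none passing (4 had an unadjusted p under 0.05). In Ti+I-OG vs naive 12 of 13 were positive with a median of 0.41, and none passed with edgeR (1 had an unadjusted p under 0.05, and 2, mt-Atp6 and mt-Co3, passed with the replicate block). With the length correction the medians were 0.71 in Ti vs naive, -0.71 in Ti+I-OG vs Ti and 0.04 in Ti+I-OG vs naive, where 9 of 13 were positive, and none passed in any comparison, mt-Nd2 and mt-Nd6 included. Their summed level was 80233, 80225 and 58724 CPM in Ti+I-OG, 101927, 118198 and 57951 CPM in Ti and 52342, 67783 and 41999 CPM in naive. Ti replicate 3 lay with the Ti+I-OG and naive libraries. Under oligo(dT) selection, levels of mitochondrially encoded transcripts also depend on how many of them carry a poly(A) tail.

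In 4 lists of other nuclear genes tied to the respiratory chain, the share called was near or under that of all tested genes. In Ti+I-OG vs naive it was 7.69% of citric acid cycle genes and 6.67% of assembly factors, against 8.26% of all genes. Of 13 citric acid cycle genes, 1 passed in Ti+I-OG vs naive, Idh3b, a subunit of isocitrate dehydrogenase, at 0.49 on the log2 scale (SE 0.12, adjusted p = 0.0319), and the median was 0.18. Of 30 tested assembly factors of complexes II to V, 2 passed, both higher: Cox14, with 0.72 (SE 0.16, adjusted p = 0.0292), and Sdhaf4, with 1.08 (SE 0.28, adjusted p = 0.0395); the median was 0.31. None of 5 electron carriers and partners (median 0.26) or of 12 regulators of mitochondrial biogenesis, among them Ppargc1a, Nrf1, Gabpa and Tfam (median -0.01), passed in that comparison, where 2 genes of each list had an unadjusted p under 0.05. In Ti vs naive no gene of these 4 lists passed, against 6.43% of all genes. The medians there were 0.07 for the citric acid cycle, 0.16 for assembly factors, 0.10 for carriers and 0.01 for regulators. With the replicate block in Ti vs naive, 2 citric acid cycle genes and 5 assembly factors passed, all higher. Of the regulators 1 passed, Pprc1, which was lower, and of the carriers 0. With the replicate block in Ti+I-OG vs naive, 1 citric acid cycle gene (Idh3b), 8 assembly factors and 1 regulator (Tfam) passed, all higher. Of the carriers and partners 2 passed, both higher: Etfa and Cyc1. Cyc1 encodes a subunit of complex III, and the symbol rule for the members leaves it out. After the length correction no gene of these lists passed in Ti+I-OG vs naive, Idh3b, Cox14 and Sdhaf4 included, and the medians there were 0.08 for the citric acid cycle, -0.03 for assembly factors, 0.15 for carriers and 0.00 for regulators, beside 0.08 for the members.

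The promoters of respiratory chain genes are known for binding sites of NRF1 and of the ETS factor GABPA, and those of the members were searched from 250 bases before to 50 bases after the annotated start (RefSeq, GRCm38.p6). Of 96 member symbols, 77 had a promoter in the table. The stretches shown are the 150 bases before the start of a gene of each kind: Cox6a1 and Uqcr11, with ETS matches, the c-ring genes Atp5g2 and Atp5g3, and Cox7a1 and Cox8b, isoforms of muscle and brown fat, which held none of the searched motifs in this stretch. Capitals mark the motif matches, all reading 5′ to 3′ on the strand of the gene.
Cox6a1: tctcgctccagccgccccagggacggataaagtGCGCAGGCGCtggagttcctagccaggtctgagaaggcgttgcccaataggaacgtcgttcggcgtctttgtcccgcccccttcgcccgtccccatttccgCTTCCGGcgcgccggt
Uqcr11: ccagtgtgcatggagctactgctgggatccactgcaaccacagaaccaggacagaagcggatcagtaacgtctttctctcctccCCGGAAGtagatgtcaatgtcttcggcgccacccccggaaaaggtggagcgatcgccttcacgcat
Atp5g2: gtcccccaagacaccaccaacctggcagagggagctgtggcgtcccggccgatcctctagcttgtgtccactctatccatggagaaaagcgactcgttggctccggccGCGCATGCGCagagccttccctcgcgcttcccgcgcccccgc
Atp5g3: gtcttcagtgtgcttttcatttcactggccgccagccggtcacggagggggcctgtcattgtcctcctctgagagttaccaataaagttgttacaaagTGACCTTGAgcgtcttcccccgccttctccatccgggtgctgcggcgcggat
Cox7a1: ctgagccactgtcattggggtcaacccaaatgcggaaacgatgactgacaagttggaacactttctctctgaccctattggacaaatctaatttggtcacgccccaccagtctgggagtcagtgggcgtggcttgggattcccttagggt
Cox8b: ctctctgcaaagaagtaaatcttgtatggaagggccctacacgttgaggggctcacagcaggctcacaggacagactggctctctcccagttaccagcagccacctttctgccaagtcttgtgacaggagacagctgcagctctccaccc
The stretches lie at chr5:115348959-115349108, minus strand (Cox6a1), chr10:80406822-80406971, minus strand (Uqcr11), chr15:102671048-102671197, minus strand (Atp5g2), chr2:73911327-73911476, minus strand (Atp5g3), chr7:30184021-30184170, plus strand (Cox7a1) and chr7:140900447-140900596, minus strand (Cox8b). In Cox6a1 the capitals are an NRF1 match at position -117 and an ETS match at -16, in Uqcr11 an ETS match at -66, in Atp5g2 an NRF1 match at -42, and in Atp5g3 a match for the oestrogen-related receptors (ERR) at -52.

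Searched on both strands, the NRF1 motif, of the form capitalised in Atp5g2, was present in 19 of 77 member promoters (24.7%) and in 5.19% of 27025 genes with a promoter in the table. The ETS core CCGGAAG was present in 24.7% and 9.93%, the YY1 motif AAGATGGC in 14.3% and 3.19%, the ERR half-site TNAAGGTCA in 3.90% and 1.43%, the MEF2 motif in 2.60% and 4.23%, and TATAAA in 10.4% and 15.7%; these motifs do not overlap in the promoters shown. The NRF1 motif was present in 4 of 18 promoters of members called in Ti+I-OG vs naive and in 15 of 58 of tested members not called, and the ETS core in 5 of 18 and 14 of 58. A match describes the letters of the window and is not a measured binding site.

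Values of some members are uncertain because reads could be shared. In GENCODE M21, 29 of the 97 genes have an exon that overlaps another gene of the deposited table, among them Ndufa4l2 (Shmt2), Cox6a2 (Itgad), Cox4i1 (Emc8), Ndufa2 (Tmco6), Ndufb2 (Braf), Ndufb11 (Rbm10), Ndufb8 and Ndufb9, and 6 have a near-identical copy elsewhere, among them Atp5l, Atp5o, Ndufs3 and Uqcrb. Itgad, which overlaps the muscle isoform Cox6a2, had log2 fold changes of -0.66 in Ti vs naive and 0.21 in Ti+I-OG vs naive, and it did not pass.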

How the data were processed

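RNA-seq of mouse tibia was analysed in 9 libraries, 3 each of Ti+I-OG, Ti and naive, grouped and numbered by the sample titles. The deposited table gives, for each gene and library, an expected count (estimated, with decimals) and an FPKM value as the authors made them. Per the labels' protocols, RNA was extracted with Trizol, selected with oligo(dT), prepared with an NEBNext Ultra kit and sequenced on a NovaSeq6000. RSEM, StringTie 1.3.1, edgeR, DESeq2 and fastp were used, per the submitters' processing notes; which aligner, genome build and annotation were used is not given in the sources used here. Total counts were 16256081 to 24766502 per library, and a count of 0 allows up to 3 counts, counting error only.

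Estimated counts were rounded to whole numbers and tested with edgeR 4.0.16 in R 4.3.3: TMM scaling, filterByExpr (14211 of 22183 genes kept), 1 quasi-likelihood fit over 9 libraries with 6 residual degrees of freedom, and Benjamini-Hochberg adjustment over all tested genes with a threshold of 0.05. Levels between groups are in CPM after TMM, and levels between genes in FPKM. Each count divided by its FPKM gave the transcript length. The length correction added to each library an offset that is a loess function (span 0.5) of log2 length. The tests were run on simulated counts first.

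Alternatives were DESeq2 1.42.0, RLE scaling, no filter on low counts, only the groups compared, the replicate number as a block, the length correction, both together, limma 3.58.1 on log2(FPKM + 1) and log2(FPKM + 0.1), and leaving out each library; fits without globin and mitochondrially encoded genes, and the length correction without naive replicate 3, were chosen after seeing the data. The labels do not say that a replicate number marks a shared animal or batch. Deviations of same-numbered libraries from their group means correlated at 0.25, 0.15 and 0.33 between Ti+I-OG and naive and at 0.12, 0.26 and 0.27 between Ti+I-OG and Ti, all over 0.1, and at -0.01, 0.39 and 0.29 between Ti and naive. A pairing by number would link all 3 groups at once, and 8 of 9 same-number pairs lay over 0.1. The exception was replicate 1 of Ti and naive, so whether the numbers pair libraries is not settled. The block was fitted over all 9 libraries, and many of its counts are given beside the main ones. Its use rests on the data and not on the design.

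Named genes are the members passing the threshold in a comparison and the member with the smallest p in each class and comparison. The members with the highest and lowest mean FPKM in each class, and the tissue-restricted isoforms with their counterparts, are also named. Beside them, Uqcrc1, Uqcrc2, Uqcrfs1, Uqcrh, Ndufs1 and Atp5b are named as long or core subunits. Uqcrb, Atp5md and Atp5mpl are named as short ones that did not pass. All of these were chosen after their values were seen. The members, the lists of pathway and marker genes, and the motifs were chosen with earlier results of these data known.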

Additional observations from a re-analysis of the deposited data

How the results depend on the processing

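The 3 medians stayed positive in every fit without 1 library: 0.20 to 0.37 in Ti vs naive, 0.06 to 0.22 in Ti+I-OG vs Ti and 0.37 to 0.55 in Ti+I-OG vs naive. With the length correction they were 0.0841, -0.0053 and 0.0838, with it and the replicate block 0.0819, -0.0051 and 0.0842, and with it and without naive replicate 3 the 2 comparisons with naive had 0.1003 and 0.0778. By limma on log2(FPKM + 1) and log2(FPKM + 0.1) the median in Ti+I-OG vs naive was 0.2820 and 0.3009; FPKM is not scaled for the globin share, and the median of all genes was then -0.17. Members called in Ti+I-OG vs naive numbered 41 by DESeq2, 62 with the replicate block, 1 with the length correction, 8 with both, 0 with the correction and without naive replicate 3, 10 by limma with either pseudocount, 9 with only the 2 groups, and 0 to 27 without 1 library. In Ti vs naive they numbered 8 by DESeq2, 39 with the block, 1 with the length correction and 6 with both. They numbered 1 with the correction and without naive replicate 3, 1 with only the 2 groups and 1 to 5 without 1 library. Replicate 1 of Ti and of naive did not correlate, while 9 of 9 libraries correlated best with their own number. In Ti+I-OG vs Ti every setting called 0 members. In the test over 3 groups they numbered 28 by DESeq2, 10 with no filter, 56 with the block, 1 with the length correction, 0 with it and without naive replicate 3, 1 by limma with either pseudocount and 0 to 15 without 1 library.

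All genes called in Ti+I-OG vs naive numbered 2440 by DESeq2, 3450 with the block, 356 with the length correction, 2107 with both, 60 with the correction and without naive replicate 3, 1787 and 1853 by limma, 770 with only the 2 groups, and 59 to 2119 without 1 library; limma split its calls into 290 higher and 1497 lower. In Ti vs naive they numbered 1859 by DESeq2, 2968 with the block, 2692 with block and length correction, 215 with the correction and without naive replicate 3, 556 and 544 by limma, 357 with only the 2 groups and 100 to 1999 without 1 library. In Ti+I-OG vs Ti they numbered 16 by DESeq2 and 0 to 5 without 1 library. Among single genes, Atp5g3 in Ti+I-OG vs naive turned to -0.022 with the length correction, with and without the block, and Cox4i2 to -0.023 with the correction and without naive replicate 3. Of the other values of single genes under the settings listed first in the methods, 403 kept direction and call, 188 kept the direction and missed the threshold, and 22 newly passed it. Except for the length correction, whose construction removes a dependence on length, the cause of these shifts was not tested. With 3 libraries a group, genes of low count such as Cox4i2 are limited by depth.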
